A study of Homo sapiens with 6 samples.

Results

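The regions described here lie at the genes of 10 G protein-coupled receptors of islet cells: GLP1R, GIPR, GCGR, ADCYAP1R1, FFAR1, FFAR4, CHRM3, ADRA2A, SSTR2 and MTNR1B. A region was taken as a promoter region when it overlapped 2 kb on either side of the start site of a protein-coding transcript of 1 of these genes in GENCODE 44. It was taken as a distal region when it was no promoter region and the protein-coding start site nearest to its midpoint, within 100 kb, belonged to 1 of them. This gave 12 promoter and 49 distal regions, 61 of the 108542 regions of the table. Each of the 10 genes had at least 1 region of both kinds, and CHRM3 had the most distal regions, at 11.

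ATAC-seq, in which a transposase cuts DNA that is open, was run on EndoC-βH3 cells to read chromatin accessibility. EndoC-βH3 is a single human beta-cell line that was immortalized with SV40 large T antigen and telomerase and carries a CreER recombinase, so that 4-hydroxytamoxifen leads to removal of both transgenes. The non-senescent group (3 libraries) kept the transgenes, and the senescent group (3 libraries) had been treated with 4-hydroxytamoxifen for 3 weeks, so drug treatment, loss of the transgenes, arrest and time in culture cannot be told apart. Each library was made from 100000 cells, and the labels do not say whether the libraries of a group came from separate cultures, so the p-values measure the spread between libraries, which may be technical.

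The table held 1 row for each region and no value for a single library. The mean signal is the normalised read count in a region averaged over the 6 libraries, and it stands below for the depth behind a value. It was not divided by the width of the region, so it is not a measure of how open 1 region is against another. The log2 fold change is positive where the signal was higher in senescent cells, and it is given with its standard error (SE), the 95% interval that follows from it, and the adjusted p-value of the authors' DESeq2 Wald test over all regions. Calls required an adjusted p under 0.05 and a change of more than 1.5-fold, which is 0.585 on the log2 scale. The cells are measured in bulk, so a region open in more cells and a region more open in each cell cannot be told apart.

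These receptors tune how much insulin a beta cell releases at a given glucose level. GLP1R, GIPR, GCGR and ADCYAP1R1 bind peptide hormones of the glucagon and secretin family and, through Gs, raise cyclic AMP, which amplifies secretion. FFAR1 and FFAR4 respond to long-chain fatty acids, and CHRM3 is the muscarinic receptor through which acetylcholine acts on Gq and calcium. ADRA2A, SSTR2 and MTNR1B bind noradrenaline, somatostatin and melatonin and couple to Gi, which lowers cyclic AMP and restrains secretion.

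The sequences printed first are of distal regions that were called higher in senescent cells. Shown are 4 of the 6 distal regions of GLP1R, where the calls ran in 1 direction, and 1 each of CHRM3, ADRA2A and MTNR1B. Each is the plus strand of hg38 over 200 bases at the midpoint of the region, in lower case. Capitals mark any match to 1 of 13 short motifs, searched on both strands: TGTTTAC (FOXA) in the GLP1R region 30.5 kb upstream, TTTC, any 2 bases and TTTC again (ISRE, the interferon-stimulated response element) in the GLP1R region 5.9 kb downstream and the MTNR1B region, and GGAATG (TEAD) in the CHRM3 region, where 2 matches on opposite strands adjoin.
GLP1R, 30.5 kb upstream, chr6:39018184-39018383: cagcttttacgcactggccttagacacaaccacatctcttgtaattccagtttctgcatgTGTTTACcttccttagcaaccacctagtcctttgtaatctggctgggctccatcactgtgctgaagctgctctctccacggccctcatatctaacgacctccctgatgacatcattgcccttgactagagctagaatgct
GLP1R, 8.4 kb upstream, chr6:39040246-39040445: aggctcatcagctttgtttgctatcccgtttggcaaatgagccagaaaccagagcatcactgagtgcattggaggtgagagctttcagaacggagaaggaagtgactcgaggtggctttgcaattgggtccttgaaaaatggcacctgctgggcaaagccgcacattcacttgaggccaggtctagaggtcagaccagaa
GLP1R, 5.9 kb downstream, chr6:39054609-39054808: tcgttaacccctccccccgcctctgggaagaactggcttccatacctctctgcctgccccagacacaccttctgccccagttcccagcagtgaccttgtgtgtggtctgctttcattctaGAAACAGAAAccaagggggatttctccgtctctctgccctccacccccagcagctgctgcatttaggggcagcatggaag
GLP1R, 13.1 kb downstream, chr6:39061785-39061984: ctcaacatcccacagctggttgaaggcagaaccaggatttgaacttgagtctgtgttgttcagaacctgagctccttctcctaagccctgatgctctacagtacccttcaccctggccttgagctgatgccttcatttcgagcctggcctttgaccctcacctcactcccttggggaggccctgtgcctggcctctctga
CHRM3, 47.0 kb upstream of an internal start site, chr1:239566246-239566445: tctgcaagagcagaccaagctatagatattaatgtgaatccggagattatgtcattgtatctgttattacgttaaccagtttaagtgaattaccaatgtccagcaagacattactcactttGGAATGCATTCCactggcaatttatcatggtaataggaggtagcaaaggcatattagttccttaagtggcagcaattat
ADRA2A, 5.2 kb downstream, chr10:111082103-111082302: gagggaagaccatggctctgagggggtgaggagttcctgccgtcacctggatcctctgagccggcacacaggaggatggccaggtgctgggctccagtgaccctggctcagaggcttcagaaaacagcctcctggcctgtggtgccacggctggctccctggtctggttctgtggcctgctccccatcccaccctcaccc
MTNR1B, 59.5 kb downstream, chr11:93029138-93029337: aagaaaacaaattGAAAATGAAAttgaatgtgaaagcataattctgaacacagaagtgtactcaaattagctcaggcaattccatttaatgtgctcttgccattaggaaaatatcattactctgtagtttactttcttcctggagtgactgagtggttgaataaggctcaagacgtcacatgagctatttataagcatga

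The promoter sequences printed here are those of the 3 genes whose promoter regions had the most negative changes past the adjusted p threshold. They are the 250 bases before the start site from RefSeq (GRCh38.p14, plus strand, which is the coding strand of all 10 genes). Capitals mark GGGCGG on either strand (the SP/KLF GC box) in GLP1R, and TAATTA (a homeobox site) and GGAATG on the other strand (TEAD) in MTNR1B. None of the 13 motifs matched in the FFAR4 stretch. A match is a description of letters and not a bound site.
FFAR4, chr10:93566415-93566664: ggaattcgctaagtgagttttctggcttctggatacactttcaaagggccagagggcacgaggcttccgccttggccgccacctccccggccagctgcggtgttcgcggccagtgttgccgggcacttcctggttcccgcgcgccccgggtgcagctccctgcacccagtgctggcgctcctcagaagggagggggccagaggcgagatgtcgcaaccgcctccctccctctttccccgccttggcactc
MTNR1B, chr11:92969401-92969650: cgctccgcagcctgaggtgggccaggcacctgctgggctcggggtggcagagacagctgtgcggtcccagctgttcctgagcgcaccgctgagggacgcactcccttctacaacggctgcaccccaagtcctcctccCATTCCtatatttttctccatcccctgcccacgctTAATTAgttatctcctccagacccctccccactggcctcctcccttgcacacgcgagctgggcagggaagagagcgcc
GLP1R, chr6:39048531-39048780: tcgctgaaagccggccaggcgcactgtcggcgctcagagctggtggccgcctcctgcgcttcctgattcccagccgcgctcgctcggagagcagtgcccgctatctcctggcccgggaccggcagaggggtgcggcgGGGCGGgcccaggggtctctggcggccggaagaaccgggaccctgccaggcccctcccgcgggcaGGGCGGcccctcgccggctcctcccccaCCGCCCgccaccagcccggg

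Over the 10 genes, 12 of the 49 distal regions were called higher in senescent cells and 3 lower. That is 24.5% and 6.12% of them, beside 18.1% and 10.6% of all 88448 distal regions of the table. The 12 calls came from 4 genes: all 6 distal regions of GLP1R, and 2 each of CHRM3, ADRA2A and MTNR1B. The 3 lower calls were 2 regions of CHRM3 and 1 of FFAR4. No promoter region was called higher and 2 of 12 were called lower, those of FFAR4 and MTNR1B, beside 3.56% and 9.04% of all 20094 promoter regions. The median log2 fold change was 0.06 over the 49 distal regions against 0.08 over all distal regions, and -0.27 over the 12 promoter regions against -0.13 over all promoter regions.

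**Figure D1:**
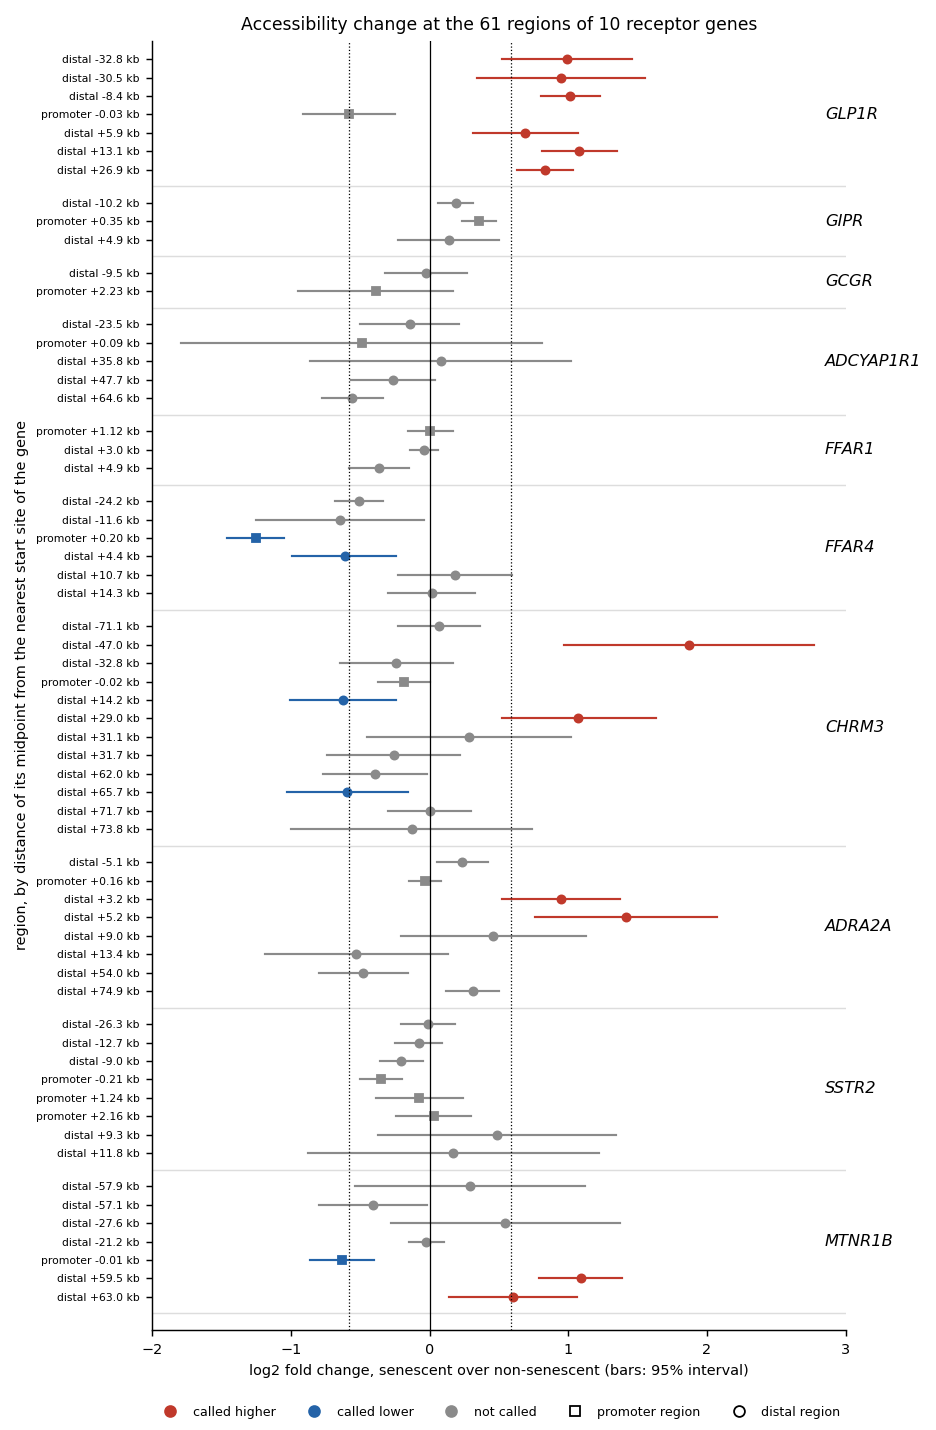
Each of the 61 regions is a row, grouped by gene and ordered by the distance of its midpoint from the nearest start site of that gene. Points (squares for promoter, circles for distal regions) are log2 fold changes, bars are 95% intervals, and dotted lines mark the 1.5-fold limit. The 6 distal regions of GLP1R lie to the right of the limit while its promoter region lies to the left of 0.

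GLP1R encodes the receptor for the incretin GLP-1. Its 6 distal regions, from 32.8 kb upstream to 26.9 kb downstream of the start site (GENCODE start chr6:39048781), were all called higher, with log2 fold changes from 0.69 to 1.08. The largest change was at chr6:39061229-39062539, in an intron of GLP1R 13.1 kb downstream, at 1.08 (SE 0.14, mean signal 216, adjusted p = 9.1e-14), a 2.11-fold difference. The region with the smallest adjusted p, chr6:39040021-39040669, lay between genes 8.4 kb upstream, at 1.01 (SE 0.11, mean signal 342, adjusted p = 1.9e-18). The start site of ENSG00000220556, a gene not annotated as protein-coding, lay 360 bases from its midpoint and was nearer than GLP1R to all 3 upstream regions. The region of highest mean signal, chr6:39075134-39076314 in an intron of GLP1R 26.9 kb downstream, was at 0.83 (SE 0.1, mean signal 385, adjusted p = 1.3e-14). These 3 lay above the 95th percentile of distal regions of like mean signal (0.82 to 0.94 on the log2 scale, in twentieths of all distal regions).

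The other 3 distal regions of GLP1R had less signal and wider intervals. The intronic region chr6:39054331-39055085, 5.9 kb downstream, was at 0.69 (95% interval 0.31 to 1.07, mean signal 101, adjusted p = 0.00159). The regions 32.8 and 30.5 kb upstream, chr6:39015829-39016158 and chr6:39018192-39018374, both lay in introns of the neighbouring gene DNAH8. Their changes were 0.99 (95% interval 0.52 to 1.46, mean signal 67.8) and 0.94 (95% interval 0.34 to 1.55, mean signal 39.3). Of 3147 genes with 6 or more distal regions within 100 kb, 1 had all of them called higher, and that gene was GLP1R, or 0.0318%. This count was chosen after the values of GLP1R had been seen. With a minimum of 5, 4 or 3 regions, 2 of 4108, 4 of 5378 and 14 of 7067 genes had all of them called higher. All 6 regions had a mean signal between 30 and 500, and 19.7% of all distal regions in that range were called higher.

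The GLP1R promoter region, chr6:39048269-39049231, which holds the start site, was at -0.58 (SE 0.17, 95% interval -0.91 to -0.25, mean signal 150, adjusted p = 0.00219). It passed the adjusted p threshold and missed the fold limit by a few thousandths, at -0.582 against 0.585 in size, and so was not called. Its interval did not overlap that of any of the 6 distal regions, but the difference between promoter and distal regions was not tested. Within 250 kb of the GLP1R start site, 3 of 15 distal regions not assigned to GLP1R were called higher and 1 lower, with a median of 0.15. Neither of the 2 promoter regions of other genes there was called.

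GIPR encodes the receptor of the other incretin, GIP. Its promoter region, chr19:45667649-45669566, had the most positive change of the 12 promoter regions, at 0.35 (SE 0.066, 95% interval 0.23 to 0.48, mean signal 1220, adjusted p = 7.1e-07). This passed the adjusted p threshold and stayed inside the fold limit at 1.28-fold. The value lay above the 95th percentile of promoter regions of like mean signal, which was 0.22. Of its 2 distal regions, chr19:45657538-45658472, 10.2 kb upstream, was at 0.19 (SE 0.064, mean signal 1147, adjusted p = 0.0103), and the intronic region 4.9 kb downstream was at 0.14 (SE 0.19, adjusted p = 0.585). Neither was called. Set beside GLP1R, the promoter changes of the 2 incretin receptors had opposite signs and intervals that did not overlap, and their difference was not tested.

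GCGR, the glucagon receptor gene, had 1 region of each kind. Its promoter region, chr17:81807052-81807583, lay in an intron with its midpoint 2.2 kb past the nearest start site and had a mean signal of 43.5, with a change of -0.39 (SE 0.29, adjusted p = 0.28). The distal region, chr17:81794332-81794928, 9.5 kb upstream, was at -0.02 (SE 0.15, 95% interval -0.32 to 0.27, mean signal 192, adjusted p = 0.911). The table held no region over a start site of GCGR.

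ADCYAP1R1 encodes the PAC1 receptor for the neuropeptide PACAP. Its promoter region, chr7:31052593-31052829, had the lowest mean signal of the 12, at 8.2, and its change could not be resolved at this depth (-0.49, 95% interval -1.79 to 0.81). The distal region of highest mean signal, chr7:31151195-31151993, lay between genes 64.6 kb downstream of the nearest start site. It was at -0.56 (SE 0.11, mean signal 395, adjusted p = 5.5e-06), past the adjusted p threshold and inside the fold limit. The other 3 distal regions ranged from -0.26 to 0.08 and none had an adjusted p under 0.05.

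FFAR1 and FFAR4 are the 2 receptors for long-chain fatty acids, and their promoter regions differed in change. The FFAR4 promoter region, chr10:93566455-93567300, fell by 1.25 on the log2 scale (SE 0.1, 95% interval -1.46 to -1.05, mean signal 401, adjusted p = 3.6e-31). This was 2.38-fold lower in senescent cells and the lowest value of the 61 regions. It holds the start site, its midpoint is in a coding exon, and its change lay under the 5th percentile of promoter regions of like mean signal, which was -0.74. The FFAR1 promoter region, chr19:35348739-35349300, with its midpoint in a UTR 1.1 kb past the start site, was at 0.00 (SE 0.084, 95% interval -0.16 to 0.17, mean signal 992, adjusted p = 0.988). The intervals of these 2 regions did not overlap, and their difference was not tested.

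The distal regions of FFAR4 were mixed. The intronic region chr10:93570967-93571259, 4.4 kb downstream, fell by 0.61 (SE 0.19, mean signal 114, adjusted p = 0.00439). The distal region of highest signal, chr10:93541962-93542966, 24.2 kb upstream, was at -0.51 (SE 0.087, mean signal 535, adjusted p = 5.1e-08), inside the fold limit. Another, 11.6 kb upstream, was at -0.65 with an adjusted p of 0.0798. The 2 regions farther into the gene, 10.7 and 14.3 kb downstream, were at 0.18 and 0.02 and were not called. In the surrounding 250 kb on each side, 2 of 21 distal regions not assigned to FFAR4 were called higher and 2 lower. None of 5 promoter regions of other genes there was called.

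The 2 distal regions of FFAR1 lay within the gene. The region chr19:35350075-35351812, in an intron 3.0 kb downstream, had the highest mean signal of the 61 regions, at 2032, and a change of -0.04 (SE 0.052, 95% interval -0.14 to 0.06, adjusted p = 0.534). The region 4.9 kb downstream was at -0.37 (SE 0.11, adjusted p = 0.00389), inside the fold limit.

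CHRM3 is a long gene on chromosome 1 with 7 protein-coding start sites, and its 11 distal regions gave calls in both directions. The promoter region, chr1:239386090-239387787, was at -0.18 (SE 0.094, mean signal 624, adjusted p = 0.101) and was not called. In its introns, chr1:239566248-239566443 was called higher at 1.87 (SE 0.46, 95% interval 0.97 to 2.77), the largest change of the 61 regions, with a mean signal of 22.7 and an adjusted p of 0.00024. The intronic region chr1:239854970-239855228 was also called higher, at 1.07 (SE 0.28, mean signal 50.3, adjusted p = 0.00072). The intronic regions chr1:239839895-239840583, at -0.62 (SE 0.2, mean signal 97.1, adjusted p = 0.00545), and chr1:239891651-239891927, at -0.59 (SE 0.22, mean signal 72.8, adjusted p = 0.021), were called lower. The region at 1.07 and the region at -0.62 lie 29.0 and 14.2 kb past the same start site, with no other region between them. The distal region of highest signal, chr1:239315024-239315869, 71.1 kb upstream, was at 0.06 (SE 0.15, mean signal 182, adjusted p = 0.758). The other 6 ranged from -0.40 to 0.28 and none had an adjusted p under 0.05.

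Among the Gi-coupled receptors, ADRA2A encodes the alpha-2A adrenergic receptor. Its promoter region, chr10:111076209-111078169, had the highest mean signal of the 12, at 1704, and a change of -0.03 (SE 0.058, 95% interval -0.15 to 0.08, adjusted p = 0.699). Just past it, 2 regions were called higher. The first, chr10:111080065-111080318 in a UTR of ADRA2A 3.2 kb downstream, was at 0.94 (SE 0.21, mean signal 92.5, adjusted p = 6.6e-05). The second, chr10:111082036-111082368, 5.2 kb downstream and past the end of the gene, was at 1.41 (SE 0.33, mean signal 38.3, adjusted p = 0.00013), a 2.66-fold difference.

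Of the other 5 distal regions of ADRA2A, the 1 of highest signal, chr10:111151488-111152439, 74.9 kb downstream, was at 0.31 (SE 0.095, mean signal 459, adjusted p = 0.00411), inside the fold limit. The region 5.1 kb upstream was at 0.24 (adjusted p = 0.0314) and the region 54.0 kb downstream at -0.48 (adjusted p = 0.0111). Within 250 kb of its start site, 10 of 17 distal regions not assigned to ADRA2A, 58.8%, were called higher and none lower, with a median of 0.83. That was the highest such share of the 10 genes, the others lying between 0% and 23.1%. Among the 17 was a region nearest to ADRA2A but past the distance limit, at 123.8 kb, which was not called. The part of this wider pattern in the 2 calls at ADRA2A was not tested.

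SSTR2, the gene of a somatostatin receptor, had 3 promoter and 5 distal regions and no call in either direction. The promoter region over its start site, chr17:73164310-73165291, was at -0.35 (SE 0.076, 95% interval -0.50 to -0.20, mean signal 888, adjusted p = 2.2e-05), inside the fold limit. The other 2 promoter regions, 1.2 and 2.2 kb into the gene, were at -0.08 and 0.03. The distal region of highest signal, chr17:73155252-73156741, 9.0 kb upstream, was at -0.21 (SE 0.08, mean signal 737, adjusted p = 0.0264). The remaining 4 ranged from -0.08 to 0.49. Of these, the pair upstream had mean signals of 523 and 577 and intervals within 0.25 of 0 on either side, and the pair downstream had mean signals of 20.6 and 13.5 and intervals wider than 1.5 in all.

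MTNR1B encodes a melatonin receptor. Its promoter region, chr11:92969221-92970051, which holds the start site, fell by 0.63 on the log2 scale (SE 0.12, 95% interval -0.86 to -0.40, mean signal 303, adjusted p = 6.6e-07), a 1.55-fold difference. The distal region chr11:93028904-93029571, between genes 59.5 kb downstream, was called higher at 1.09 (SE 0.15, 95% interval 0.79 to 1.39, mean signal 195, adjusted p = 1.8e-11). A second region 63.0 kb downstream, chr11:93032647-93032863, was called higher at 0.60 (SE 0.23, mean signal 67.3, adjusted p = 0.0277). This second call was lost at an adjusted p under 0.01, under a Wald test of a change over 1.5-fold, and with a trend removed, whether on mean signal (0.51) or GC content (0.54). The start site of RPL26P31, a gene not annotated as protein-coding, lay 23590 and 20072 bases from the midpoints of the 2 called regions. It was nearer than that of MTNR1B. The distal region of highest signal, chr11:92947940-92948881, 21.2 kb upstream, was at -0.03 (SE 0.063, 95% interval -0.15 to 0.10, mean signal 1178, adjusted p = 0.758). The other 3, all upstream with mean signals of 101 or less, ranged from -0.41 to 0.55 and were not called.

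MTNR1B and GLP1R were the 2 genes of the 10 with called distal regions that were all higher beside a promoter change past the adjusted p threshold and below 0. At MTNR1B the intervals of the promoter region (-0.86 to -0.40) and of the strongest called distal region (0.79 to 1.39) did not overlap. Whether any distal region acts on the gene with the nearest start site was not measured, and 36 of the 49 had a mean signal of 50 or more. The 4 regions of the table between 100 and 150 kb from a start site of the 10 genes, which the distance limit left out, belonged to ADRA2A, MTNR1B and ADCYAP1R1 and none was called, with changes from -0.59 to -0.22.

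**Figure D2:**
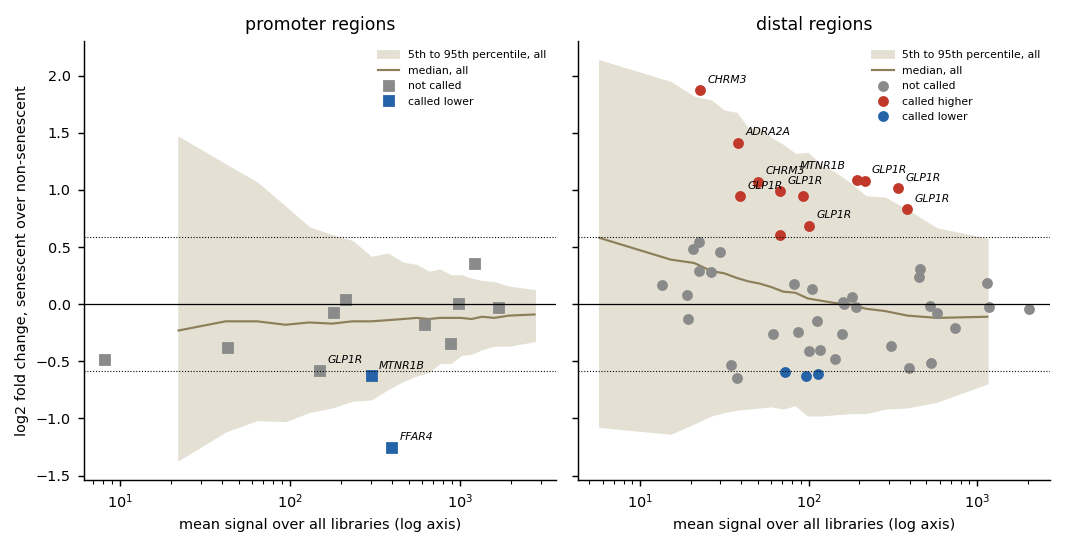
Mean signal over all libraries (log axis) against log2 fold change for the 12 promoter regions (left, squares) and 49 distal regions (right, circles). The shaded band runs from the 5th to the 95th percentile of all regions of that kind in 20 steps of mean signal and the line is their median. FFAR4 lies under the promoter band, GIPR lies above it, and 3 regions of GLP1R, 1 of MTNR1B and 1 of CHRM3 lie above the distal band.

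By the place of the midpoint, 19 of the 49 distal regions lay in introns, 27 between protein-coding genes and 3 in UTRs. Of the 49, 30 lay downstream and 19 upstream of the nearest start site. The 12 regions called higher had a median width of 330.5 bases and a median mean signal of 80.2, against 593 bases and 130 for the 34 not called. Over all regions of the table, promoter and distal together, the change also moved with the signal. The median log2 fold change was 0.25 for regions of mean signal 10 to 50 and -0.11 at 1000 or more. With that trend removed, all 6 GLP1R regions were still called higher, at 0.68 to 1.16, and the FFAR4 promoter region was at -1.15. The calls of the MTNR1B promoter region (-0.54) and of the MTNR1B region 63.0 kb downstream (0.51) were lost.

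Of the 13 motifs, searched in 300 bases at each midpoint, most matched few of these regions. Of the GLP1R distal regions, the 1 at 30.5 kb upstream held FOXA and the MAF site (TGCTGAC) and the 1 at 5.9 kb downstream the ISRE and the GC box. The other 4 held none of the 13, among them AP-1 (TGANTCA), NEUROD (CAGATGG) and CTCF. Among all 12 distal regions called higher, 3 held the ISRE, 2 AP-1, 2 the MAF site and 2 the GC box. These motifs were held by 4.91%, 15.0%, 11.8% and 3.19% of all distal regions called higher. FOXA and TEAD were held by 1 of the 12 each and the other motifs by none. Called or not, 5 of the 49 distal regions held the ISRE, 10.2%, beside 7.07% of all distal regions. The cyclic AMP response element TGACGTCA was held by 1 of the 49 distal regions, the FFAR4 region 14.3 kb downstream, which did not pass the test, beside 0.291% of all distal regions. The GC box was held by 7 of the 12 promoter regions, 58.3%, beside 55.5% of all promoter regions, and in the RefSeq promoters (300 bases) 42.6% held it. No region of the 10 genes held the RFX or p53 letters, which says only that these letters are not in these windows.

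The genes around these receptors were taken from 6 lists of 107 genes, chosen by function. Together they had 175 promoter regions, of which 12 were called higher and 23 lower with a median of -0.10. They also had 676 distal regions, of which 113 were called higher and 84 lower with a median of 0.02. Of all promoter regions, 3.56% were called higher and 9.04% lower, and of all distal regions 18.1% and 10.6%. The relatives of the receptors had 51 distal regions, with 9 called higher (17.6%) and 6 lower (11.8%). Below, each gene is counted by its promoter region of highest signal, and over all 15493 genes with such a region 1.39% were called higher and 7.02% lower, with a median of -0.14. In this count, 2 of the 12 relatives with such a region were called lower and none higher: VIPR2, a receptor for VIP and PACAP, at -0.94 (SE 0.23, adjusted p = 0.00031), and CHRM2, a Gi-coupled muscarinic receptor, at -0.67 (SE 0.13, adjusted p = 2.8e-06).

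Other islet receptors showed 7 of 21 such promoter regions called lower and none higher, with a median of -0.37. Over all 34 promoter regions of this list, 3 were called higher (2 of CASR and 1 of ADORA1, chosen after their values were seen) and 12 lower. The shares over all promoter regions were 3.56% and 9.04%. The largest changes at the region of highest signal were at ADORA2A, an adenosine receptor coupled to Gs (-1.09, SE 0.095, adjusted p = 1.5e-28), and AVPR1B, a vasopressin receptor (-1.05, SE 0.091, adjusted p = 1.7e-28). Of their 92 distal regions, 12.0% were called higher and 15.2% lower, beside 18.1% and 10.6% of all distal regions. Among the ligands, 4 of 7 genes were called lower and none higher, with a median of -0.73. GHRL, which encodes ghrelin, was at -1.16 (SE 0.077, adjusted p = 9.2e-48) and SST, which encodes the ligand of SSTR2, at -1.08 (SE 0.16, adjusted p = 3.9e-10). SST was also in the list of delta-cell markers, where HHEX, too, was lower (-0.87) and LEPR was at -0.01.

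Over all their promoter regions, the signalling genes behind the receptors had 2 of 36 called higher and 1 lower for G proteins and cyclases, 4 of 50 and 2 for effectors of cyclic AMP, and 3 of 33 and 2 for Gq signalling and desensitisation. Beside these counts stand 3.56% called higher and 9.04% lower of all promoter regions. By the region of highest signal, of 15 genes of G proteins and adenylyl cyclases, 1 was called higher and 1 lower: ADCY3 at 1.55 (SE 0.27, mean signal 53.7, adjusted p = 1.2e-07) and ADCY8, a calcium-stimulated cyclase, at -0.64 (SE 0.069, adjusted p = 6.1e-19). None of the 22 effectors of cyclic AMP was called by its strongest promoter region. The 2 with the largest changes were PDE1C, a phosphodiesterase, at -0.52 (adjusted p = 3.9e-06), and RAPGEF3, which encodes the cyclic AMP sensor EPAC1, at 0.33 (adjusted p = 0.0051). The other promoter region of RAPGEF3 and 1 of the other 2 of PDE1C were called lower. Of 18 genes of Gq signalling and receptor desensitisation, ITPR3, an IP3 receptor, was called lower (-0.67, SE 0.089, adjusted p = 1.5e-12), and RGS2, an inhibitor of Gq, was at -0.28 (adjusted p = 0.00013), inside the fold limit. By distal regions these 3 lists lay between 16.8% and 19.4% called higher and between 9.48% and 13.4% called lower. All distal regions were at 18.1% and 10.6%.

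**Figure D3:**
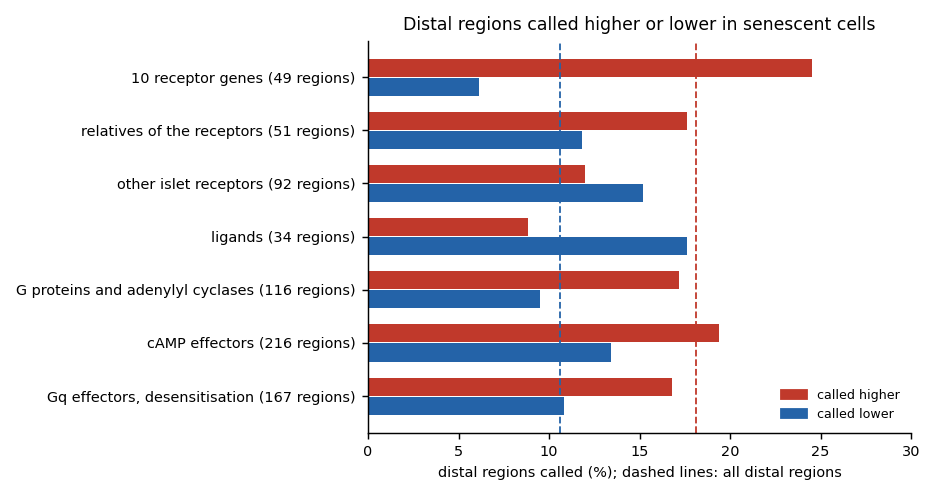
Bars give the share of distal regions called higher (red) or lower (blue) for the 10 receptor genes and for 6 lists of related genes, with the number of regions in brackets. Dashed lines mark the shares of all distal regions, 18.1% and 10.6%. The 10 receptor genes are at 24.5% higher and 6.12% lower, and 6 of the 12 higher calls are regions of GLP1R.

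The identity of the cells was checked at promoter regions. All 12 beta-cell marker genes had 1, with mean signals at the strongest from 184 (IAPP) to 7894 (INS), and PTPRC, CD3E and CDH5 of immune and endothelial cells had none, as had the acinar genes PRSS1 and PNLIP. Markers of other cells were not all absent. PECAM1, PDGFRA and COL1A1 had promoter regions of mean signal 117, 125 and 142, and CPA1 and LEPR of 2101 and 2579. Of the beta-cell genes, INS (1.11, SE 0.037) and IAPP (0.63, SE 0.15) were called higher and PCSK1 lower (-0.80, SE 0.06). The direction of the fold change was read from the study's figure legends, which give changes as senescent versus non-senescent. The deposited values do not name it. At the strongest promoter regions, the proliferation gene MKI67 was at -0.53 (SE 0.097) and CDKN1A, the gene of p21, at -0.30 (SE 0.083), both inside the fold limit. The other promoter region of MKI67 was called lower. Of the distal regions, 2 of 6 of MKI67 and 2 of 2 of CDKN1A were called higher, so these genes do not settle the direction by themselves.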

How the data were processed

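ATAC-seq libraries of EndoC-βH3 cells (3 senescent, 3 non-senescent, grouped by the sample labels) were compared. According to the study's methods, paired-end reads were trimmed with Trim Galore, aligned to hg38 with Bowtie2, cleared of mitochondrial and duplicate reads, shifted by 4 and 5 bp for the transposase, and peaks were called with MACS2. Reads under the peaks were compared with DESeq2 (version not given in the sources used here). These steps suit ATAC-seq.

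The mean signal in the deposited table is the normalised count over all libraries. The log2 fold change and its SE, the Wald score, the p-value and the adjusted p-value, all deposited by the authors, come from their own comparison. They were used because values per library are absent from the table, so that neither a new test nor the depth and spread of a library could be had. For all 108542 regions the score equalled the fold change over its SE and the adjusted p equalled a Benjamini-Hochberg adjustment. The numerator is not named and was read as senescent. Starts are given as the table has them, and whether they count from 0 or 1 is not stated. Intervals are 95% Wald intervals.

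Regions were assigned to genes with GENCODE 44 in Python 3.11.15 (pandas 2.3.3, scipy 1.17.1). The members, lists, motifs and tests were chosen with earlier results of these data known, and the comparisons with neighbouring regions and with regions of like signal were added after the values had been seen. Named were each gene's promoter and distal region of highest mean signal, all called regions, and, per list, the 2 genes whose strongest promoter region changed most. Calling and trend removal were tested on simulated data. Printed sequences are from hg38 and, for promoters, RefSeq (GRCh38.p14), which matched all 10 genes. Stretches with UTR bases are not shown. Alternatives changed the threshold, test, filter, centring, trends on mean signal and GC content, windows and start sites.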

Additional observations from a re-analysis of the deposited data

How the results depend on the processing

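No paired analysis was possible because values of single libraries were not part of the table. For the same reason no replicate could be left out and no other normalization tried. Over 34 single regions and 6 alternatives, 166 of 204 values kept their direction and call, 19 lost the call, 10 gained it and 9 changed sign, none of these a called region. The sign changes were GCGR 9.5 kb upstream (0.02 with the trend on mean signal removed, 0.09 with that on GC content), FFAR1 3.0 kb downstream (0.07 and 0.11), the ADRA2A promoter (0.08 and 0.11), MTNR1B 21.2 kb upstream (0.09 with the trend on mean signal), CHRM3 71.1 kb upstream (-0.08 with GC content) and the FFAR1 promoter (-0.01 when centred). The counts moved by more than 1.5 times in 21 of 88 cases. With no fold limit, 1 promoter region of the 10 genes was higher and 4 lower, and 8 distal regions were lower, and for the pathway lists 25 promoter regions were higher, 54 lower and 137 distal lower. With a Wald test of a change over 1.5-fold, 1 promoter region stayed lower (FFAR4), 3 distal regions higher (2 of GLP1R, 1 of MTNR1B) and 0 lower, and for the lists 5 promoter regions were higher and 4 lower, with 30 distal higher and 20 lower. With either trend removed, 1 promoter region was lower, since MTNR1B moved inside the fold limit (-0.54 for mean signal, -0.47 for GC content), and the MTNR1B region 63.0 kb downstream lost its call (0.51 and 0.54). With that on GC content, 5 distal regions were lower, and for the lists 14 promoter regions. When start sites of all transcripts of any gene counted, coding or not, 7 distal regions were higher, 3 of them at GLP1R and 0 at MTNR1B. The start of a gene not annotated as protein-coding lies nearer to the 3 upstream regions of GLP1R. At MTNR1B such starts lie nearer to all 6 distal regions, so both of its higher calls were lost. For the lists, 67 distal regions were higher at a mean signal of at least 50, and 4 and 3 promoter regions with windows of 1 and 0.5 kb. GLP1R had 6 of 6 distal regions called higher with adjusted p under 0.01, centring and either trend removed. Centring brought its promoter region past the fold limit (-0.59). The precision rests on 3 against 3 libraries, and at a mean signal of 10 to 50 the median SE was 0.36.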
